A study of Mus musculus with 4 samples.

Results

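The genes described here encode the pyruvate dehydrogenase complex (PDC) of the mitochondrion and the enzymes that switch it off and on. They were 10 genes chosen by symbol among the 23337 listed in each library: the 4 subunit genes *Pdha1*, *Pdhb*, *Dlat* and *Pdhx*, the 4 kinase genes *Pdk1*, *Pdk2*, *Pdk3* and *Pdk4*, and the 2 phosphatase genes *Pdp1* and *Pdp2*. All 10 were found in all 4 libraries, and all 10 passed the filters on low values. Their RNA was measured by RNA-seq in hearts of C57BL6/J mice. The control genotype was PIMT fl/fl, with exons 3 and 4 of *Tgs1*, the gene of PIMT, placed between loxP sites, and with no Cre. The csPIMT-/- mice had the same floxed alleles and in addition a Cre transgene driven by the α-myosin heavy chain promoter, which acts in cardiomyocytes and leaves the gene intact in the other cells of the heart. Both genotypes were taken at 2 and at 6 months of age. RNA from the hearts of 5 mice, male and female, was pooled in each of the 4 groups, and each pool gave 1 library. There were no replicates, so no difference between groups at 1 age has a replicate check.

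PDC joins glycolysis to the tricarboxylic acid cycle by turning pyruvate into acetyl-CoA. Its E1 enzyme (*Pdha1*, *Pdhb*) decarboxylates pyruvate, its E2 core (*Dlat*) passes the acetyl group to coenzyme A, its E3 (*Dld*) reoxidizes the lipoate arm of E2, and *Pdhx* encodes the protein that holds E3 on the core. The PDK kinases phosphorylate the α subunit of E1 and turn the complex off, and the PDP phosphatases remove the phosphate and turn it on again. In the heart *Pdk4* is known as a gene induced by fasting and by fatty acids through PPAR receptors, so that a heart that burns fat spares glucose. RNA levels say nothing of the phosphorylation of the complex, which was not measured in these libraries.

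The libraries held 29823073 to 40705783 reads on genes. *Tgs1*, the targeted gene, stood at 580 and 816 normalized counts in the younger and older controls and at 160 and 162 in the csPIMT-/- libraries, a ratio of csPIMT-/- over control of 0.271 at 2 months and 0.194 at 6 months over the whole gene. The 10 cardiomyocyte markers were abundant in every library, with summed levels of 2.18e+06 to 3.87e+06 normalized counts. The libraries also differed in ways that the groups do not name. The 5 atrial markers summed to 40742 normalized counts in the 2-month control and to between 121250 and 349420 in the other 3 libraries, mostly as *Nppa*, a gene also known to be raised in failing ventricle. Their median ratio of csPIMT-/- over control was 48.9 at 2 months and 0.455 at 6 months. The 6 white fat markers summed to 13.0 in the 2-month control and to 14600 in the 2-month csPIMT-/- library, with 3345 and 2451 in the control and csPIMT-/- libraries of 6 months, and the 7 lung markers to 1.73, 1227, 11.4 and 19.8 in the same order. At 0 in the 2-month control were 6 of the lung and 2 of the white fat markers, and none of either list in the csPIMT-/- libraries. The 5 brown fat markers summed to 26621 in the 2-month csPIMT-/- library and to 13562 to 17190 elsewhere, mostly as *Cox7a1*, and their median ratio was 13.7 at 2 months. *Ucp1*, the most specific of them, stood at 8.65 in the 2-month control and 1766 in the 2-month csPIMT-/- library. The 2-month control had the highest summed level of 4 Y-linked genes, 8087 against 449 to 1176 elsewhere, and the lowest level of *Xist*, 805 against 6369 to 25639, so the pools differed in sex-linked RNA. Skeletal muscle markers summed to 23460 to 122420, nearly all as *Acta1*, with a median ratio of 0.386 at 2 months and 3.82 at 6 months. Fibroblast, endothelial and leukocyte markers summed to 149110 to 285890, 39858 to 60168 and 5297 to 16329, and the 4 globin genes were listed at 0 in all libraries. In pooled tissue, fewer cells of a type and less RNA per cell cannot be told apart.

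The upstream sequences of 4 of these genes are shown: *Pdk4* and *Pdha1*, which had the lowest ratio among them at 2 and at 6 months respectively, *Pdk2*, whose RNA was higher in the csPIMT-/- library of 2 months, and *Dlat*, the other subunit called in the test over both ages. Each is the stretch from -250 to -51 relative to the RefSeq start (GRCm38.p6), 5′ to 3′ on the strand of the gene, which is the minus strand in all 4. They lie at chr6:5496329-5496528 (*Pdk4*), chr11:95041422-95041621 (*Pdk2*), chrX:160138481-160138680 (*Pdha1*) and chr9:50659831-50660030 (*Dlat*), and overlap no annotated exon. Capitals mark matches to the motifs searched on both strands: the GC box GGGCGG, the CCAAT box CCAAT, the E-box CACGTG, the nuclear receptor site AGGTCA, the FOXO core GTAAACA and the TATA box TATAAA.
Pdk4: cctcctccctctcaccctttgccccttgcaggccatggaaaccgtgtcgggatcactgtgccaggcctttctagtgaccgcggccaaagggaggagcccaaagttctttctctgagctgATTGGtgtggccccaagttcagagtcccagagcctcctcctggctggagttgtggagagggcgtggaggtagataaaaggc
Pdk2: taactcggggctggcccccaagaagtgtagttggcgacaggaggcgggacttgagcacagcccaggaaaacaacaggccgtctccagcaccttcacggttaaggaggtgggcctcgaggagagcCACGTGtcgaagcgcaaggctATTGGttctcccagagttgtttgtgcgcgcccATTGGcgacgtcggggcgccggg
Pdha1: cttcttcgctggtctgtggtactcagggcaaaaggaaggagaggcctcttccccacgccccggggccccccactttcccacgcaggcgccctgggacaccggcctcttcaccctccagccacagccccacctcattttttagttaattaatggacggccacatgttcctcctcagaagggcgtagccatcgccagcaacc
Dlat: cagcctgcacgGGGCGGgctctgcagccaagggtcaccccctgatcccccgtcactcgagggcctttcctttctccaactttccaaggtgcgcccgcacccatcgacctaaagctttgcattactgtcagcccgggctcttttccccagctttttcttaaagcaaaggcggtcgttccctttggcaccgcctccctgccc
The *Pdk4* stretch held 1 CCAAT box on the opposite strand, which begins at -131. That of *Pdk2* held 2 CCAAT boxes and an E-box, that of *Dlat* 1 GC box, and that of *Pdha1* no match. Of 9 of the 10 genes with a promoter in the table, *Pdhb*, *Pdk3*, *Pdk2*, *Pdk4* and *Pdp2* held a CCAAT box, which 28.4% of 32851 promoters hold in the same window, and *Pdk2* and *Pdp2* held the E-box, which 4.34% hold. The GC box, which 24.6% hold, was in *Pdhb*, *Dlat*, *Pdhx*, *Pdk1*, *Pdk3* and *Pdp2*. The windows of the 9 had a GC content of 59% (*Pdk4*) to 66.5% (*Pdk3*), beside a median of 51.5% over all promoters. None of the 9 held AGGTCA (11.4% of promoters), GTAAACA (2.58%) or TATAAA (9.14%) in these 200 bases. A match is a description of the letters and not a site of binding. A missing match holds for these 200 bases alone, which leave out those nearest the start and those farther upstream.

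The levels of the 10 genes in the 4 libraries show 1 gene apart from the others. *Pdk4* RNA was highest in the 2-month control and lowest in the csPIMT-/- library of the same age, whereas the libraries of 6 months had nearly the same level between these. The subunit genes were lower in the csPIMT-/- library at both ages, and most clearly *Pdha1* and *Dlat*.

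**Figure D1:**
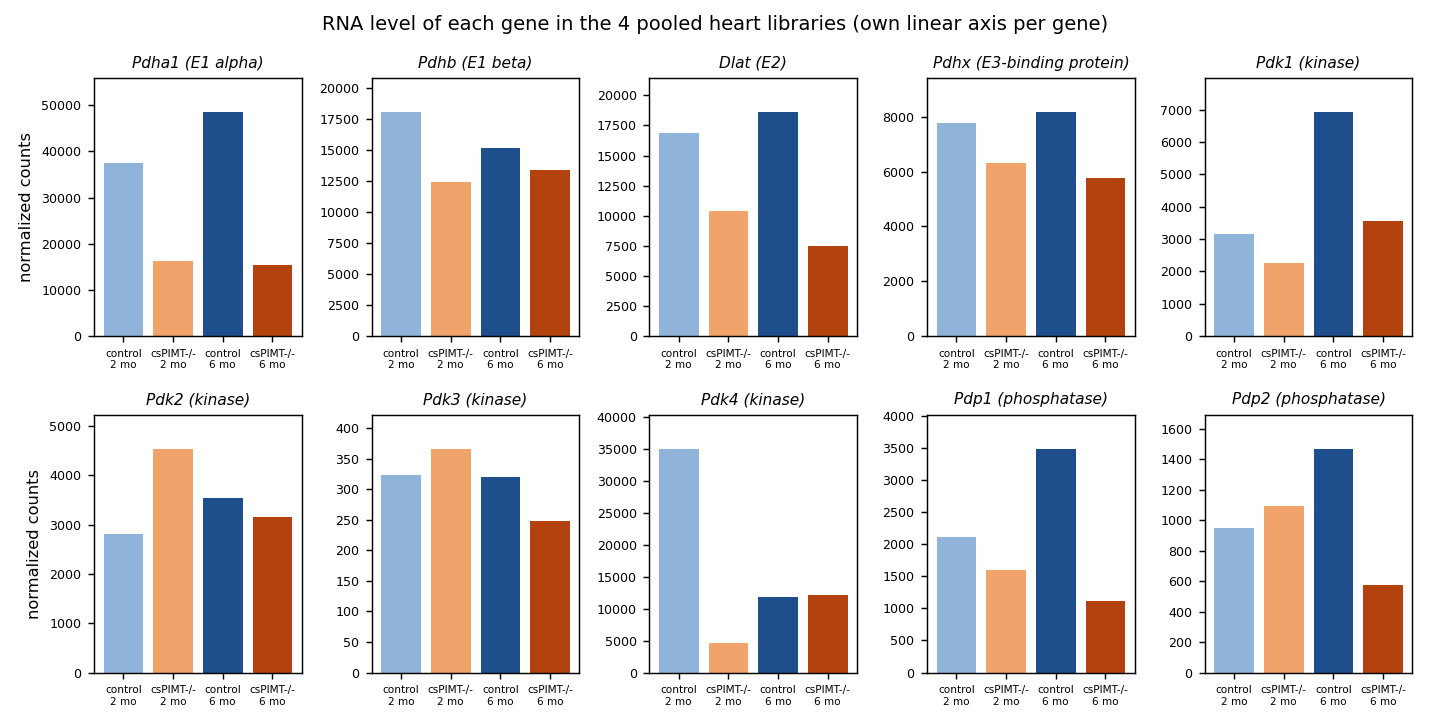
Normalized counts (y axis, linear, from 0, with its own scale for each gene) of the 10 genes in the 4 pooled libraries (bars, 1 library each, so without error bars). *Pdk4* stands at 35031 in the 2-month control and 4617 in the 2-month csPIMT-/- library, and *Pdha1* is lower in both csPIMT-/- libraries than in both controls.

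At 2 months 7 of the 10 genes had a ratio below 1, where 51.1% of 15152 genes compared did, and at 6 months all 10 did, where 50.9% of 15218 did. Below a ratio of 0.5 lay *Pdk4* and *Pdha1* at 2 months, 2 of 10 against 23.0% of all genes, and *Pdha1*, *Dlat*, *Pdp1* and *Pdp2* at 6 months, 4 of 10 against 25.7% of all genes. No member passed a ratio of 2 at either age, where 16.4% and 16.0% of all genes did. The median ratio of the 10 genes was 0.724 at 2 months and 0.587 at 6 months, beside 0.980 and 0.977 over all genes. After the adjustment for GC content described below it was 1.014 and 0.850, beside 1.013 and 1.010 over all genes. Counting intervals of 95% (Clopper-Pearson), which hold the counting error of reads alone, excluded a ratio of 1 for 9 of 10 genes at each age, but they did so for 84.2% and 85.1% of all genes as well. Between the 2 control libraries 5.21% of genes lay below a ratio of 0.5 and 8.15% above 2, and among the 10 genes *Pdk4* lay below and *Pdk1* above.

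The ratios moved with the GC content of the transcript. Across genes, which are not independent replicates, Spearman's rho of the log2 ratio with the GC content of the longest transcript was 0.581 at 2 months and 0.607 at 6 months, and -0.261 for the ratio of the controls of 6 over 2 months. Of the 10 genes, 8 had a GC content between 44% and 48%, and all genes in this window had a median ratio of 0.681 at 2 months and 0.639 at 6 months, with 30.5% and 35.7% below 0.5. The members outside it were *Pdp1*, at 39.2%, and *Pdk2*, at 56.9%. Each member's ratio of genotype is therefore given below as deposited and also after a smooth trend on GC content was subtracted, here called GC-adjusted. After it *Pdk4* was the 1 member below 0.5 at 2 months, where 11.4% of genes were, and *Pdp1* the 1 above 2, where 15.0% were. At 6 months *Pdp2* was the 1 member below 0.5 against 13.1% of genes, and 0 lay above 2 against 14.2%. The ratios of *Tgs1*, the targeted gene, were 0.271 and 0.194 as deposited and 0.599 and 0.492 after GC adjustment. The part of GC content in the differences was not tested.

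**Figure D2:**
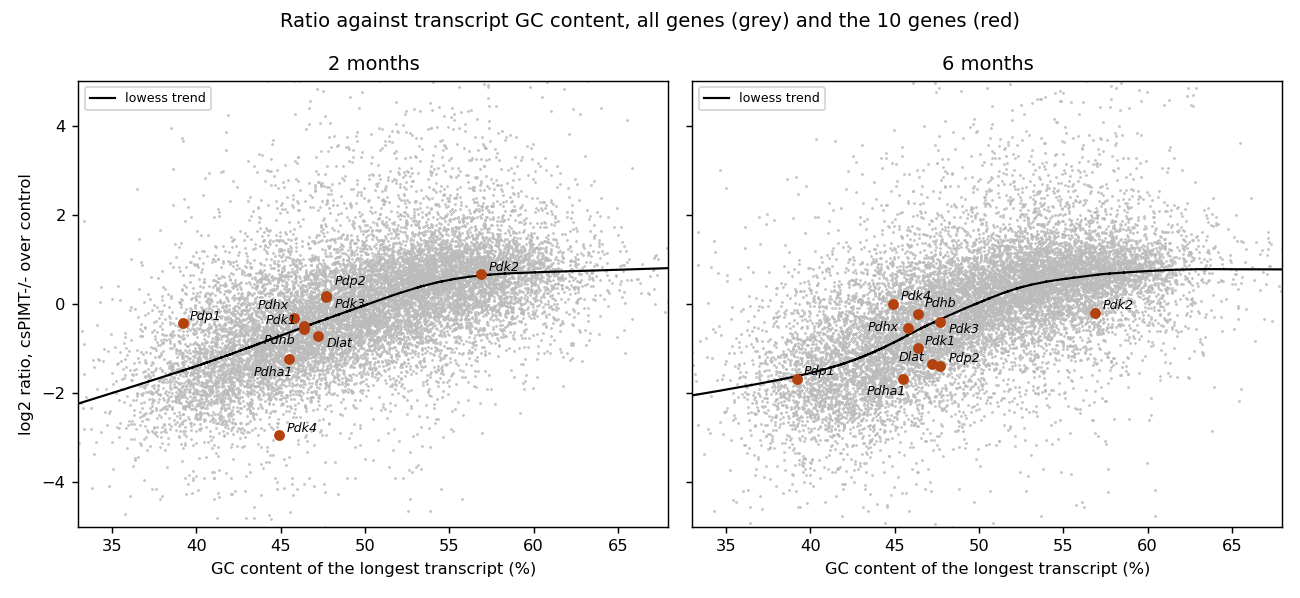
The log2 ratio of csPIMT-/- over control (y axis, limited to ±5) against the GC content of the longest transcript in percent (x axis) at 2 and 6 months, with 1 grey dot per gene, the lowess trend as a line and the 10 genes in red. *Pdk4* lies far under the trend at 2 months and above it at 6 months, *Pdk2* lies on it at 2 months and under it at 6 months, and *Pdha1* and *Dlat* lie under it at both ages.

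*Pdha1* encodes the α subunit of E1, which carries the serines that the kinases phosphorylate. It is an X-linked gene (chrX:160122209-160138413, minus strand). Its levels were 37576 and 48557 normalized counts in the younger and older controls and 16180 and 15449 in the csPIMT-/- libraries of these ages. Both csPIMT-/- libraries were below both controls. The ratio was 0.422 (0.414 to 0.430) at 2 months and 0.310 (0.304 to 0.316) at 6 months. After GC adjustment the ratios were 0.659 and 0.524. Between the controls *Pdha1* moved by a ratio of 1.23 from 2 to 6 months, and *Xist* went from 805 to 25639. The part of the sex of the pooled mice in the *Pdha1* ratios was not tested.

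*Pdhb*, the β subunit gene of E1, gave 18087 and 15182 normalized counts in the younger and older controls and 12423 and 13364 in the csPIMT-/- libraries. Its ratios of 0.673 and 0.858 became 0.965 and 1.29 after GC adjustment. The 2 genes of the E1 enzyme therefore stood in other proportions in the libraries of the 2 genotypes. Within a library, which removes any scaling between libraries, *Pdha1* had 2.08 reads per read of *Pdhb* in the 2-month control and 3.20 in the 6-month control, against 1.30 and 1.16 in the csPIMT-/- libraries of 2 and 6 months. Both csPIMT-/- values lay below both control values, and the 2 controls also differed from each other. The counting intervals of these 4 proportions did not overlap, but they hold counting error alone and are narrow at these read numbers. No share over all gene pairs was computed.

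*Dlat* encodes the acetyltransferase that forms the core of the complex. It gave 16872 and 18621 normalized counts in the controls and 10389 and 7493 in the csPIMT-/- libraries of 2 and 6 months. Its ratio was 0.604 (0.588 to 0.619) at 2 months and 0.392 (0.382 to 0.403) at 6 months, GC-adjusted 0.800 and 0.530. *Pdhx*, the gene of the E3-binding protein, differed less. It gave 7768 and 8179 in the controls and 6317 and 5783 in the csPIMT-/- libraries, with ratios of 0.797 and 0.689, which after GC adjustment lay above 1, at 1.21 and 1.12. The 2 controls differed for *Pdhx* by no more than counting error (ratio 1.01, 0.977 to 1.04). *Dlat* had 2.17 and 2.28 reads per read of *Pdhx* in the younger and older controls and 1.64 and 1.30 in the csPIMT-/- libraries.

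Per kilobase of the longest transcript *Pdha1* was the most abundant of the 4 subunit RNAs in both controls, with 13194 and 17049 normalized counts per kb, and *Pdhx* the least, with 3100 and 3264. In the csPIMT-/- libraries *Pdha1* and *Pdhb* were close, at 5681 and 5226 per kb at 2 months and 5425 and 5622 at 6 months. The per-length value of *Pdhb* depends on the model, since its longest annotated transcript is a single-exon model of 2377 bases without a coding sequence and its longest coding transcript has 1513 bases.

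*Pdk4* encodes the kinase that the heart makes in response to fatty acids and fasting. It gave 35031 normalized counts in the 2-month control and 4617 in the 2-month csPIMT-/- library, a ratio of 0.129 (0.125 to 0.134), which was lower than that of all but 1.41% of the genes compared. At 6 months it gave 11858 in the control and 12138 in the csPIMT-/- library, a ratio of 0.997 (0.973 to 1.02). The libraries of 6 months thus differed for *Pdk4* by no more than counting error, and both lay between those of 2 months. The GC-adjusted ratios were 0.214 at 2 months and 1.82 at 6 months, so the direction at 6 months depends on that adjustment. The study's own quantitative PCR gave *Pdk4* as lower in csPIMT-/- hearts at both ages, unlike the ratio of 6 months here. The RNA-seq ratio that the study printed was also near 1 at 6 months, but was less far below 1 at 2 months.

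The 2 control libraries themselves differed for *Pdk4* by a ratio of 0.323 (0.317 to 0.330) of 6 over 2 months, and only 2.29% of genes had a lower ratio between the controls. In csPIMT-/- hearts the RNA stood higher at 6 than at 2 months, by a ratio of 2.56 (2.46 to 2.65), where 94.4% of genes had a lower one. The log2 ratio of genotype was therefore larger by 2.95 at 6 than at 2 months, a change above that of 98.9% of 14781 genes. Of these genes, 22.2% changed by more than 1 in either direction, and the median size of the change was 0.466. Against the control of the other age, the ratio of *Pdk4* was 0.377 for the 2-month csPIMT-/- library and 0.340 for that of 6 months. The 2-month control, where *Pdk4* was highest, was also the library with almost no white fat marker RNA and the most Y-linked RNA, and the 2-month csPIMT-/- library, where *Pdk4* was lowest, the one with the most white fat, lung and brown fat marker RNA. The part of these in the *Pdk4* difference was not tested. Per the study's methods the mice were fed freely.

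*Pdk2*, a kinase gene expressed widely, was the only 1 of the 10 with a ratio as deposited above 1.5 at either age. It gave 2814 normalized counts in the 2-month control and 4542 in its csPIMT-/- counterpart, and 3547 and 3160 at 6 months. The csPIMT-/- library of 2 months was above the other 3. The ratio was 1.58 (1.51 to 1.66) at 2 months and 0.868 (0.828 to 0.910) at 6 months. *Pdk2* had the highest GC content of the 10 transcripts, and after GC adjustment its ratios were 1.02 and 0.553. The members above 1.5 were then *Pdp1* at 2 months (2.09) and *Pdk4* at 6 months (1.82).

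*Pdk1*, a kinase gene known to be induced in hypoxia through HIF-1, gave 3141 and 6929 normalized counts in the younger and older controls and 2264 and 3557 in the csPIMT-/- libraries. Its level was higher at 6 than at 2 months in both genotypes, by a ratio of 2.11 (2.03 to 2.19) in controls and 1.53 (1.44 to 1.62) in csPIMT-/- hearts. The ratio of genotype was 0.706 at 2 months and 0.5001 at 6 months, the latter at the edge of a 2-fold difference, and 1.01 and 0.751 after GC adjustment. Per kilobase *Pdk3* was the scarcest of the 10 RNAs in every library but the 6-month csPIMT-/- one, where *Pdp2* was. It gave 324 and 320 normalized counts in the controls and 366 and 249 in the csPIMT-/- libraries. Its ratio of 1.11 at 2 months lay within counting error of 1 (0.949 to 1.30), that of 6 months was 0.757 (0.640 to 0.893), and the controls did not differ beyond counting error (0.945, 0.816 to 1.10). *Pdk3* is X-linked, like *Pdha1*.

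Within a library the makeup of the kinase RNA, per kilobase of transcript, shifted between libraries. *Pdk4* made up 83.3% of the summed kinase RNA in the 2-month control and 33.5% in the 2-month csPIMT-/- library, where *Pdk2* made up 51.1%. At 6 months *Pdk4* made up 52.6% in the control and 61.2% in the csPIMT-/- library, and *Pdk2* 24.4% and 24.7%. *Pdk1* made up 5.02% and 20.7% in the younger and older controls and 11.03% and 12.05% in the csPIMT-/- libraries. *Pdk3* did not exceed 4.38% in any library. In the 2-month csPIMT-/- library the leading kinase depends on the length used: *Pdk4* made up 46.4% and *Pdk2* 41.2% with median coding lengths, and 39.2% and 38.5% without length scaling. As reads, *Pdk4* had 12.4 reads per read of *Pdk2* in the 2-month control (12.0 to 12.9), 1.02 in the csPIMT-/- library of that age (0.971 to 1.06), and 3.34 and 3.84 in the control and csPIMT-/- libraries of 6 months. As reads, the balance thus stood at about parity in 1 library alone. These shares and balances were not adjusted for GC content, which was 44.9% for *Pdk4* and 56.9% for *Pdk2*. At 2 months the ratio of csPIMT-/- over control was 0.129 for *Pdk4* and 1.58 for *Pdk2* as deposited, and 0.214 and 1.02 after GC adjustment. The parity and the lead of *Pdk2* in that library thus hold without GC adjustment only, and were not examined after it.

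*Pdp1*, the calcium-stimulated phosphatase, gave 2105 and 3484 normalized counts in the younger and older controls and 1592 and 1119 in the csPIMT-/- libraries. The ratio was 0.741 (0.692 to 0.793) at 2 months and 0.313 (0.292 to 0.335) at 6 months. *Pdp1* has the lowest GC content of the 10, and after GC adjustment the ratios were 2.09 and 0.962, so its direction at 2 months depends on that adjustment. *Pdp2*, the phosphatase known to respond to insulin and feeding, gave 950 and 1468 in the controls and 1094 and 573 in the csPIMT-/- libraries, with ratios of 1.13 (1.03 to 1.23) and 0.380 (0.345 to 0.419), GC-adjusted 1.43 and 0.485. Both phosphatase RNAs went opposite ways with age in the 2 genotypes. From 2 to 6 months they stood higher in controls, by ratios of 1.58 and 1.48, and lower in csPIMT-/- hearts, by ratios of 0.684 and 0.510.

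Summed per kilobase, the 4 kinase RNAs came to 12070 normalized counts per kb in the 2-month control, 3957 in the 2-month csPIMT-/- library, and 6471 and 5694 in the control and csPIMT-/- libraries of 6 months. The 2 phosphatase RNAs came to 668, 571, 1087 and 367 in the same order. Kinase RNA over phosphatase RNA was therefore 18.1 in the 2-month control and 6.93 in the 2-month csPIMT-/- library, and 5.95 in the 6-month control and 15.5 in the 6-month csPIMT-/- library. The csPIMT-/- value was 0.384 of the control value at 2 months and 2.61 times the control value at 6 months. At 2 months the summed ratio of the kinases was 0.328 with *Pdk4* and 1.31 without it, and that of the phosphatases was 0.855. At 6 months the summed ratio was 0.338 for the phosphatases and 0.880 for the kinases. The GC-adjusted ratio of each gene was also used, a setting chosen after seeing the data. The summed ratios were then 0.352 for the kinases and 1.92 for the phosphatases at 2 months, and 1.27 and 0.849 at 6 months. The low phosphatase sum at 6 months thus depends on that adjustment. So do the direction of the phosphatase sum at 2 months and that of the kinase sum at 6 months. The balance of csPIMT-/- over control was then 0.183 at 2 months and 1.498 at 6 months. The 2 controls, 18.1 and 5.95, differed from each other by more than either differed from the csPIMT-/- library of its age.

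**Figure D3:**
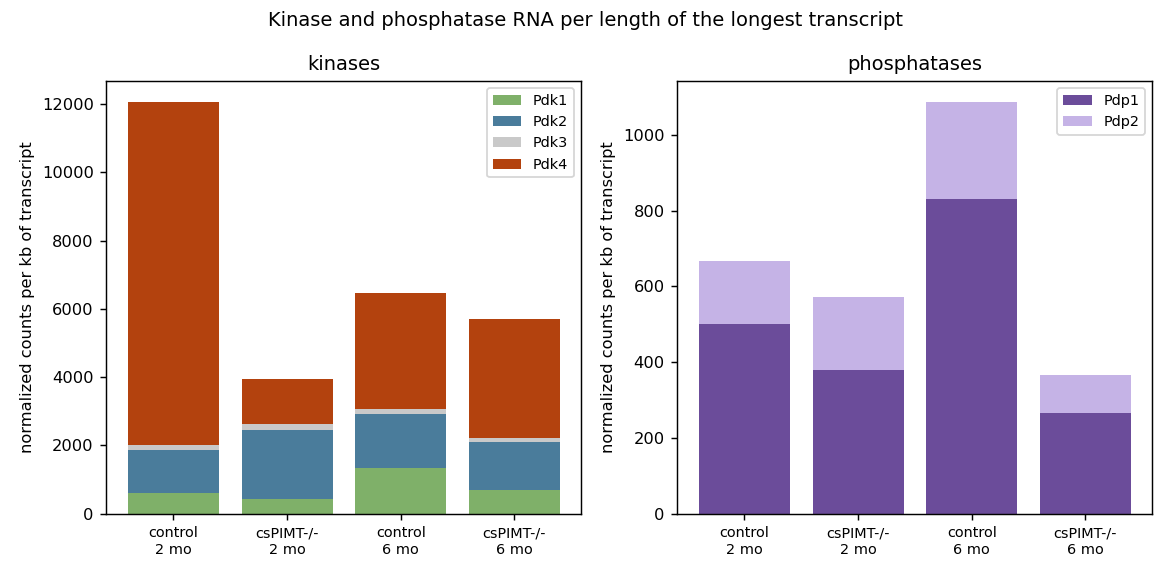
RNA of the 4 kinases (left) and of the 2 phosphatases (right) in normalized counts per kilobase of the longest transcript (y axes, linear, from 0), stacked by gene, in the 4 libraries (1 library per bar, without error bars). *Pdk4* makes up 83.3% of the kinase bar in the 2-month control and 33.5% in the 2-month csPIMT-/- library, and the phosphatase bar is lowest, at 367, in the 6-month csPIMT-/- library.

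A linear model over all 4 libraries, with genotype and age as terms (limma on log2(count + 1) with TMM factors), asked which RNAs differed by genotype at both ages alike. It has 1 residual degree of freedom, so the departure of the 2 ages from equal effects stands in for the spread of replicates, and most of its variance is borrowed across genes. *Pdha1* fell by 1.44 on the log2 scale (SE 0.259, adjusted p = 0.014) and *Dlat* fell by 1.01 (SE 0.255, adjusted p = 0.031), both lower in 2 of 2 ages. These were 2 of 10 members called lower, where 18.8% of 14935 genes were, and none was called higher, where 12.4% were. At an unadjusted p below 0.05 this limma fit had 4 of the 10 lower and 0 higher, where 45.7% of all genes passed in either direction. The adjusted p of *Pdha1* ranged from 2.83e-05 to 0.141 over the alternative fits and that of *Dlat* from 0.00636 to 0.205, and with the GC trend subtracted none of the 10 was called. In limma on genotype alone without the 6-month control, the adjusted p of *Pdha1* was 0.073 and that of *Dlat* 0.131. *Dlat* was also not called without the 2-month control (adjusted p = 0.097 in limma) or without the 6-month csPIMT-/- library (0.063).

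The other 8 genes did not pass in this limma fit. Limma without a filter called *Pdp1* lower too (adjusted p = 0.044), as did limma on genotype alone without the 2-month csPIMT-/- library (adjusted p = 0.038). *Pdk4* had a log2 difference of -1.45 with the largest SE of the 10, 0.631, and an adjusted p of 0.125. When 1 library was left out, its log2 difference ranged from -2.23 (without the 6-month control) to -0.67 (without the 2-month control). *Pdp1* had -1.03 (adjusted p = 0.064) and *Pdk1* -0.72 (adjusted p = 0.060). *Pdp2* (-0.58), *Pdhx* (-0.41), *Pdhb* (-0.37), *Pdk3* (-0.10) and *Pdk2* (0.26) had adjusted p-values of 0.190 to 0.843. None of the 4 kinase genes was called by limma (1 at an unadjusted p below 0.05) or by edgeR's quasi-likelihood test on the recovered reads (1 at an unadjusted p below 0.05), and DESeq2 on these reads called *Pdk4* lower (adjusted p = 0.014) and *Pdp1* too (adjusted p = 0.023).

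**Figure D4:**
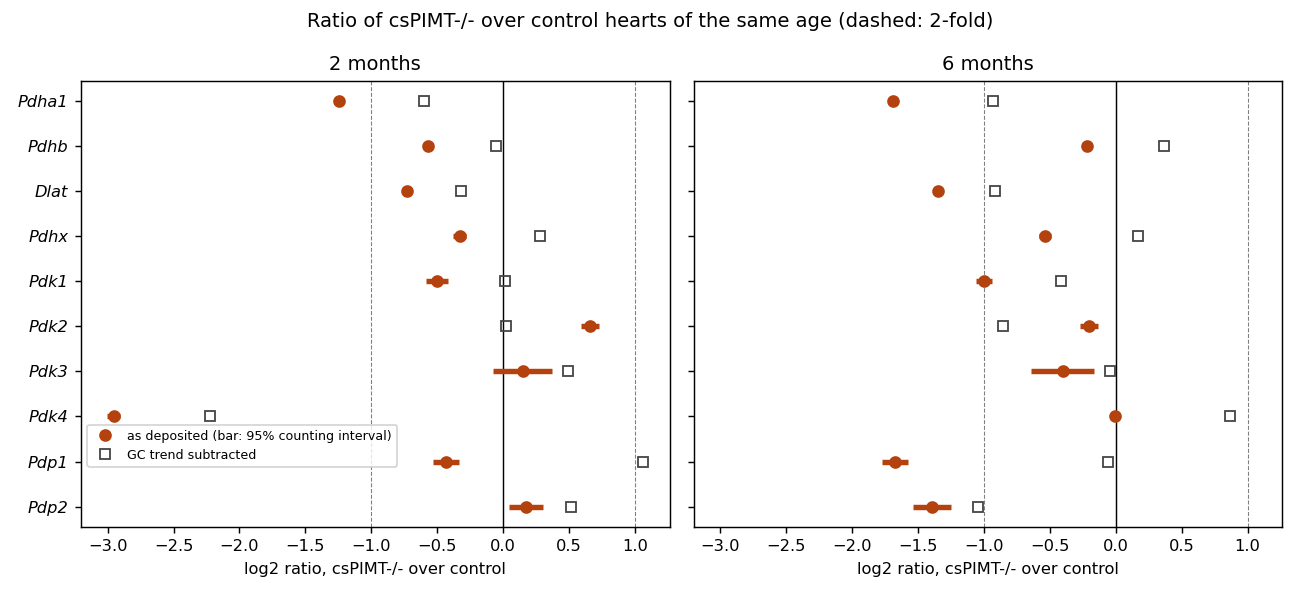
The log2 ratio of csPIMT-/- over control at 2 months (left) and 6 months (right) for each of the 10 genes. Filled circles are ratios as deposited with bars for the 95% counting interval, open squares are ratios after the GC trend was subtracted, and dashed lines mark 2-fold. *Pdk4* at 2 months is the only member beyond 2-fold lower both before and after that adjustment, with ratios of 0.129 and 0.214, and at 6 months *Pdp2* is, with 0.380 and 0.485.

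Between the ages the log2 ratio of genotype changed by more than 1 for 3 of the 10 genes, where 22.2% of all genes did. For *Pdk4* it was larger by 2.95 at 6 months. For *Pdp2* it was smaller, with a change of -1.57, below which lay 6.62% of genes, and for *Pdp1* with a change of -1.24, below which lay 9.43%. The other 7 genes changed by -0.87 (*Pdk2*) to 0.35 (*Pdhb*). After GC adjustment the changes of the same 3 genes were 3.09, -1.56 and -1.12. With 1 library in each group these changes could not be tested.

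**Figure D5:**
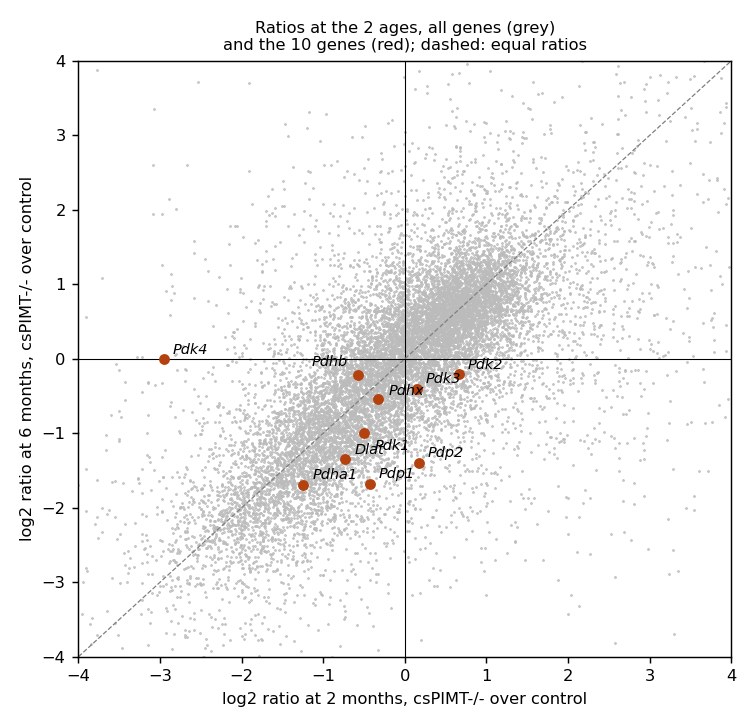
The log2 ratio of csPIMT-/- over control at 6 months (y axis) against that at 2 months (x axis), with 1 grey dot per gene, the 10 genes in red and equal ratios as a dashed line. *Pdk4* lies far to the left of the line, at -2.95 and -0.004, and *Pdp1* and *Pdp2* lie under it, at -1.68 and -1.39 at 6 months.

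Among the other components of the complex is *Dld*, which encodes the E3 that PDC shares with its sister complexes. As deposited, *Dld* had lower ratios than any of the 4 subunit genes. It gave 9542 and 14010 normalized counts in the younger and older controls and 2013 and 2707 in the csPIMT-/- libraries. Both csPIMT-/- values were below both control values, the ratios were 0.207 and 0.188, and *Dld* fell by 2.31 on the log2 scale in limma (SE 0.209, adjusted p = 0.00802). Its GC-adjusted ratios were 0.514 and 0.528, the latter beside 0.524 for *Pdha1* and 0.530 for *Dlat* at 6 months. *Pdpr*, a regulatory subunit of the phosphatase, had ratios of 1.16 and 0.806 and an adjusted p of 0.954, and *Pdha2*, the testis form of the E1 α subunit, had 0 to 2 reads.

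Of 12 genes of pyruvate and lactate handling, limma called 2 higher and none lower, where 12.4% of all genes were called higher and 18.8% lower. *Pcx*, the pyruvate carboxylase that takes pyruvate to oxaloacetate, gave 685 and 2497 normalized counts in the younger and older controls and 7814 and 4525 in the csPIMT-/- libraries (log2 difference 2.18, adjusted p = 0.038). Its level was highest in the 2-month csPIMT-/- library, which also had the most white fat marker RNA, and fat is a tissue that expresses *Pcx*. The part of this in the difference was not tested. *Slc16a3*, a lactate exporter, gave 227 and 214 in the controls and 525 and 1345 in the csPIMT-/- libraries (log2 difference 1.92, adjusted p = 0.021). At 2 and 6 months the ratios of *Pcx* were 11.2 and 1.77, GC-adjusted 7.03 and 1.10. Those of *Slc16a3* were 2.27 and 6.13, GC-adjusted 1.47 and 3.94. The lactate dehydrogenase gene *Ldha* had ratios of 1.55 and 1.89 (GC-adjusted 1.38 and 1.59, adjusted p = 0.062), and the genes of the mitochondrial pyruvate carrier, *Mpc1* and *Mpc2*, 0.931 and 1.21, and 0.861 and 0.610 (adjusted p = 0.725 and 0.20).

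The sister complexes for 2-oxoglutarate and for branched-chain 2-oxoacids share the E3 and the lipoate chemistry of PDC. Of their 9 genes limma called 1 lower and 2 higher, near the 18.8% and 12.4% of all genes. *Dbt*, the E2 of the branched-chain complex, had ratios of 0.688 and 0.316 (adjusted p = 0.050, just within the threshold), and *Bckdha*, its E1 α gene, had 2.86 and 1.56 (adjusted p = 0.034), as *Bckdk*, the kinase that turns it off, had 2.19 and 1.61 (adjusted p = 0.029). After GC adjustment *Dbt* had 1.497 and 0.792, *Bckdha* 1.79 and 0.969, and *Bckdk* 1.76 and 1.23, so the direction of *Dbt* turned at 2 months and that of *Bckdha* at 6 months. Of 9 genes of lipoate synthesis and transfer 1 was called higher, *Mcat* (ratios 2.50 and 1.79, GC-adjusted 1.55 and 1.09, adjusted p = 0.020), and none lower.

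Among 18 genes of factors known to act on *Pdk4*, limma called 5 lower and 2 higher, where 18.8% and 12.4% of all genes were. *Ppargc1a*, a coactivator of PPARs and estrogen-related receptors, had ratios of 0.251 and 0.447 (adjusted p = 0.012). *Nr3c1*, the glucocorticoid receptor, had 0.369 and 0.308 (adjusted p = 0.00877), and *Hif1a* had 0.364 and 0.409 (adjusted p = 0.010). *Ppargc1b* and *Med1* were the others called lower. *Esrra*, a nuclear receptor of mitochondrial genes, had 1.55 and 1.75 (adjusted p = 0.042), and *Rxrb* 1.89 and 1.68 (adjusted p = 0.030). *Ppara* did not pass, with ratios of 0.667 and 0.577 (GC-adjusted 0.594 and 0.487, adjusted p = 0.060). After GC adjustment the ratios of *Ppargc1a* were 0.568 and 1.16, those of *Nr3c1* 0.794 and 0.763, those of *Hif1a* 0.848 and 1.09, those of *Esrra* 1.54 and 1.67, and those of *Rxrb* 1.14 and 0.989. The direction of *Ppargc1a*, *Hif1a* and *Rxrb* at 6 months thus depends on the adjustment.

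Of 24 PPAR target genes other than *Pdk4*, limma called 7 lower and 3 higher, again beside 18.8% and 12.4% of all genes. *Ucp3*, a mitochondrial carrier protein, had ratios of 0.451 and 0.238 (adjusted p = 0.016), and *Decr1*, an enzyme for unsaturated fatty acids, had 0.50 and 0.186 (adjusted p = 0.021). *Acadm*, *Acadl* and *Hadhb*, of β-oxidation, *Cd36*, of fatty acid uptake, and *Acot2* were the others called lower, and *Plin2*, *Pnpla2* and *Vnn1* were called higher. The GC-adjusted ratios of *Ucp3* were 0.370 and 0.185 and those of *Decr1* 0.865 and 0.362. The direction of *Cd36* (1.12 and 1.10 after adjustment) and of *Hadhb* (1.70 and 1.64) turned at both ages. The median log2 difference of the 24 was -0.33. *Acot1* gave 1135 normalized counts in the control and 523 in the csPIMT-/- library at 2 months, and 401 and 310 at 6 months, and *Angptl4* 2018 and 1148, and 964 and 1123. *Pdk4*, *Acot1* and *Angptl4* thus each had their highest level in the 2-month control, a library that all these comparisons at 2 months share. From 2 to 6 months in controls 20 of the 24 had a ratio below 1, with a median of 0.771, where 49.3% of all genes lay below 1. From 2 to 6 months in csPIMT-/- hearts 24 of the 24 did, with a median of 0.732 and a highest ratio of 0.951, where 48.8% of all genes lay below 1, whereas the ratio of *Pdk4* was 2.56.

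The genes whose pattern over the 4 libraries was most like that of a member were found by the root mean square (RMS) difference of log2 levels centred on the mean of the gene. For *Pdha1* they were *Asph*, *Dleu2* and *Thap1*, at an RMS difference of 0.018 to 0.027. For *Pdhb* they were *Akirin2*, *Numb* and *Mcam*, for *Dlat* *D6Wsu163e*, *Aste1* and *Coq3*, and for *Pdhx* *Cdc16*, *Gmpr2* and *Gab1*. *Pdk2* was closest to *Rxrg*, at 0.012, and *Pml* was also among its nearest. *Pdp1* was closest to *Dbt*, at 0.043, followed by *Jam2* and *Psmd10*. For *Pdp2* they were *Nt5c1a*, *Gbp5* and *Crhr2*, and for *Pdk3* *Dis3l*, *Bola3* and *Sec22a*. Those of *Pdk1* included *Pcdhga7* and *Armcx5*. *Pdk4* had no close neighbour: its nearest, *Adamts12*, *Nts* and *Slitrk4*, lay at 0.281 to 0.307, which was farther than the third neighbour of any other member. The RMS difference is not scaled by the size of a gene's changes, and those of *Pdk4* were large, so its distance partly restates their size. With 4 libraries such likeness rests on 4 points and was not tested.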

How the data were processed

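The authors pooled RNA of 5 hearts per group, aligned reads to mm10 with STAR, counted them per gene (HTSeq 0.6.1p1, per the submitters' processing notes) and normalized the counts with DESeq2, whose version is not stated. The deposited values are normalized read counts, a signal per gene scaled by a size factor for each library. The 6-month csPIMT-/- column is headed as read counts but is normalized like the others. In each library 100% of values were whole multiples of the value of 1 read (0.865 to 1.23), and reads were recovered by division. The fit of these reads in edgeR called 2508 genes lower and 1619 higher.

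Each ratio was scaled by the median-of-ratios factors of its 2 libraries, for genes with at least 10 reads in 1 of them, and has a 95% Clopper-Pearson interval, which covers counting error only. log2 ratios had a pseudocount of 0.5 reads. The GC trend was a lowess curve (span 0.3) on GENCODE M21 transcripts (GRCm38), which also gave lengths and gene coordinates. With 1 library per group no test was made within an age. Over both ages limma 3.58.1 (R 4.3.3, edgeR 4.0.16, DESeq2 1.42.0, scipy 1.17.1) tested genotype with age as a covariate, a pseudocount of 1 and a mean trend, on genes with 10 scaled counts in 2 libraries and 15 in all. Benjamini-Hochberg adjustment was made over all genes, at a threshold of 0.05. The scripts were tested on simulated data.

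The 10 genes, the 6 lists of related genes and the markers were chosen with earlier results of these data known. All 10 genes and *Tgs1* are named, of each list 2 to 4 genes with values (more where a count asked for the names), and for each of the 10 the 3 nearest genes with a mean of at least 100 normalized counts. Some genes that this rule covers are not reported here. *Mpc1* and *Mpc2* were matched by their older symbols *Brp44l* and *Brp44*. Promoters came from RefSeq (GRCm38.p6), 9 of 10 genes matched, without *Pdp1*. Reads shared with paralogs or overlapping genes could be split or dropped by the counting. The libraries were directional, barcoded and pooled for sequencing on a HiSeq instrument, and whether the counting used strand is not given in the sources used here. Alternatives were other factors, controls, minimums and pseudocounts, the GC trend, other tests, other lengths, and leaving out each library.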

Additional observations from a re-analysis of the deposited data

Results flagged for a closer look

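The following RNAs had ratios of csPIMT-/- over control on opposite sides of 1 at the 2 ages. With 1 library in each group the difference between the ages was not tested in any of them. *Pdk2* had a ratio of 1.58 at 2 months and 0.868 at 6 months. *Pdk3* had 1.11 at 2 months, within counting error of 1, and 0.757 at 6 months. *Pdp2* had 1.13 at 2 months and 0.380 at 6 months. The 3 kinases other than *Pdk4*, summed per kilobase, had 1.31 at 2 months and 0.721 at 6 months. The balance of kinase over phosphatase RNA was 0.384 of the control value at 2 months and 2.61 times it at 6 months. After GC adjustment the ratios of *Pdk2* were 1.02 and 0.553, those of *Pdk3* 1.41 and 0.968, and those of *Pdp2* 1.43 and 0.485, each on the same side of 1 as before. *Pdk4* (0.214 and 1.82), *Pdp1* (2.09 and 0.962) and *Pdhb* (0.965 and 1.29) lay on opposite sides of 1 only after GC adjustment. The GC-adjusted balance of kinase over phosphatase RNA was 0.183 and 1.498, and the sum of the kinases other than *Pdk4* 1.045 (2 months) and 0.660 (6 months) of the control value.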

How the results depend on the processing

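No paired analysis was possible because each group holds 1 library. Under another control, both controls summed or the GC trend, 55 of the single-gene ratios moved beyond their counting interval and 5 did not. The other scaling, minimums and pseudocount moved none of 80, and at these read numbers they could hardly do so. With the 6-month control in place of that of 2 months, 4 of the 10 genes lay below 0.5 at 2 months instead of 2. With the GC trend subtracted 1 gene lay below 0.5, 1 above 2 and 4 below 1 at 2 months, and 1 lay below 0.5 at 6 months. In the fit over both ages the number of members called lower was 0 without the mean trend, 0 with the GC trend subtracted and 4 in DESeq2, and 0 to 3 when a library was left out (0 without the 6-month control, 1 without the 2-month control or the 6-month csPIMT-/- library). Without the mean trend limma called 0 of all genes (5944 at an unadjusted p below 0.05), and with the GC trend subtracted 0 (3502 so), with 2 and 1 of the 10 members at an unadjusted p below 0.05. Subtracting the GC trend reversed the log2 difference of *Pdhb* (0.17), *Pdhx* (0.23), *Pdk2* (-0.41), *Pdk3* (0.24) and *Pdp1* (0.50), and leaving out the 6-month csPIMT-/- library that of *Pdk3* (0.19; -0.36 without the 2-month csPIMT-/- library). The cause was not tested. With median coding lengths *Pdk4* made up 89.6%, 65.6%, 46.4% and 73.0% of kinase RNA in the younger and older controls and the csPIMT-/- libraries of 2 and 6 months, and without length scaling 84.8%, 39.2% and 63.5% in the 2-month control and the csPIMT-/- libraries. *Pdp1* made up 83.2%, 84.1%, 76.4% and 81.3% of phosphatase RNA with median coding lengths and 68.9%, 70.4%, 59.3% and 66.1% without length scaling. The lack of replicates, the GC trend and the marker RNA of other tissues all limit these results, and their weights were not tested. *Pdk3* had the fewest reads of the 10 genes, 239 to 374.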

Other observations

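From 2 to 6 months the csPIMT-/- libraries had lower RNA of some mitochondrial gene lists, though not of every related gene. All 9 genes of the sister 2-oxoacid dehydrogenase complexes had a ratio of 6 over 2 months below 1 in csPIMT-/- hearts (median 0.770), and all 9 genes of lipoate synthesis and transfer did (median 0.796), where 48.8% of all genes lay below 1. In controls the medians of these lists were 1.38 and 0.960. *Dld*, the E3 that the sister complexes share with PDC, went the other way in csPIMT-/- hearts, with a ratio of 1.31. The 10 cardiomyocyte markers had a median ratio of 0.820 in csPIMT-/- hearts and 0.956 in controls. *Ppm1k*, the phosphatase that turns the branched-chain complex on, stood at 3094 normalized counts in the 2-month control, 9566 in the 6-month control, and 2947 and 1883 in the csPIMT-/- libraries of 2 and 6 months. Like *Pdp1* and *Pdp2*, it was higher at 6 than at 2 months in controls and lower in csPIMT-/- hearts. None of this could be tested, with 1 library in each group. The white fat and lung markers were also lower at 6 than at 2 months in csPIMT-/- hearts, with summed levels from 14600 to 2451 and from 1227 to 19.8, and their part was not tested.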
